A study of Mus musculus with 4 samples.

Results

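The expression of 8 genes that set the response of a cell to extracellular ATP and adenosine was examined in mouse Th2 cells that were or were not grown with SH-2251, a small molecule developed to block IL-5. The genes were Nt5e, Entpd1, Ada, Adora2a, Adora2b, P2rx7, P2rx4 and Dpp4. They were chosen by name, with earlier results of these data known, and were found on the arrays through the RefSeq accession of each probe. All 8 were present among the 18539 genes that could be named, and 15 of the 41174 probes belonged to them.

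CD4 T cells came from the spleens of female C57BL/6J mice. The labels describe a culture of 2 days on immobilized anti-TCR-β antibody (3 µg/ml) with anti-CD28 antibody (1 µg/ml), IL-4 at 10 ng/ml and IL-2 at 2.5 ng/ml, and then 3 days in the cytokines alone. Control cells had no compound, and treated cells had SH-2251 in both phases, at 1 µM in the first and 1 mM in the second according to the labels, whereas the study's methods name a single lower dose, so the dose behind the treated values is not settled. The cells were left resting or were restimulated for 4 h on immobilized anti-TCR-β antibody, which gave 4 conditions with 1 single-dye array each. The methods describe sorted naïve cells and an added antibody to IFN-γ, which the labels do not mention. No source tells whether the 4 RNA samples came from separate animals or cultures. With 1 array per condition no difference below has a replicate check, and none was tested.

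ATP that leaves a T cell through channels such as pannexin hemichannels acts on P2X and P2Y receptors in the plasma membrane. It is cut to AMP by CD39 (Entpd1) and from AMP to adenosine by CD73 (Nt5e). Adenosine acts through receptors that raise or lower cyclic AMP, and it is removed by uptake, by phosphorylation or by adenosine deaminase (Ada), which in humans is held at the cell surface by CD26 (Dpp4). In T cells ATP receptors can add to activation or lead to shedding and death, and adenosine receptors that raise cyclic AMP restrain activation.

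P2rx7, the gene for the ATP-gated channel P2X7, was the only 1 of the 8 genes that differed at least 2-fold between SH-2251-treated and control cells, and it was lower in both states, in the restimulated cells only just past that limit. Adora2b, which encodes a low-affinity adenosine receptor, had the greatest increase on restimulation among the 8 genes, and P2rx7 was at least 2-fold lower on restimulation in both treatments. Adora2a was at least 2-fold higher and Nt5e at least 2-fold lower on restimulation in the SH-2251-treated cells, and both fell short of 2-fold when all probes of the gene were averaged. Entpd1, Ada, P2rx4 and Dpp4 stayed within 2-fold in all 4 comparisons.

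Levels are given as the log2 of the background-corrected intensity minus the 75th percentile of the array, so that 0 is a bright but not extreme probe. That percentile was at an intensity of 561, 614, 499 and 583 on the resting control, resting SH-2251, restimulated control and restimulated SH-2251 arrays, and between 56.0% and 56.7% of probes were well above background. Levels can be compared between conditions for 1 probe, but not between probes or genes. The technical SD beside a difference is the error estimate of the scanner software, and leaves out the spread between cultures or animals. Over all genes its median was 0.204 on the log2 scale in the resting comparison. It was close to this value for most bright probes, whatever the gene, and is not a spread observed between arrays. A step larger than it is therefore not shown to be repeatable. All 4 arrays lay on 1 slide and were read in 1 scan.

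With SH-2251, a decrease of 2-fold or more was seen in 1 of the 8 genes in the resting cells and an increase of that size in 0, against 2.90% and 2.26% of 12684 genes. The counts were again 1 and 0 in the restimulated cells, against 2.78% and 2.65% of 12623 genes. The median log2 difference of the 8 genes was 0.09 in both states, beside -0.06 over all genes in either state. On restimulation of the control cells, 1 gene decreased and 1 increased by 2-fold or more, where 7.34% and 7.24% of 12758 genes did so. In the SH-2251-treated cells 2 genes decreased and 2 increased, where 6.98% and 7.09% of 12613 genes did so. Each array enters 2 of the 4 comparisons, so the comparisons are not independent of each other.

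**Figure D1:**
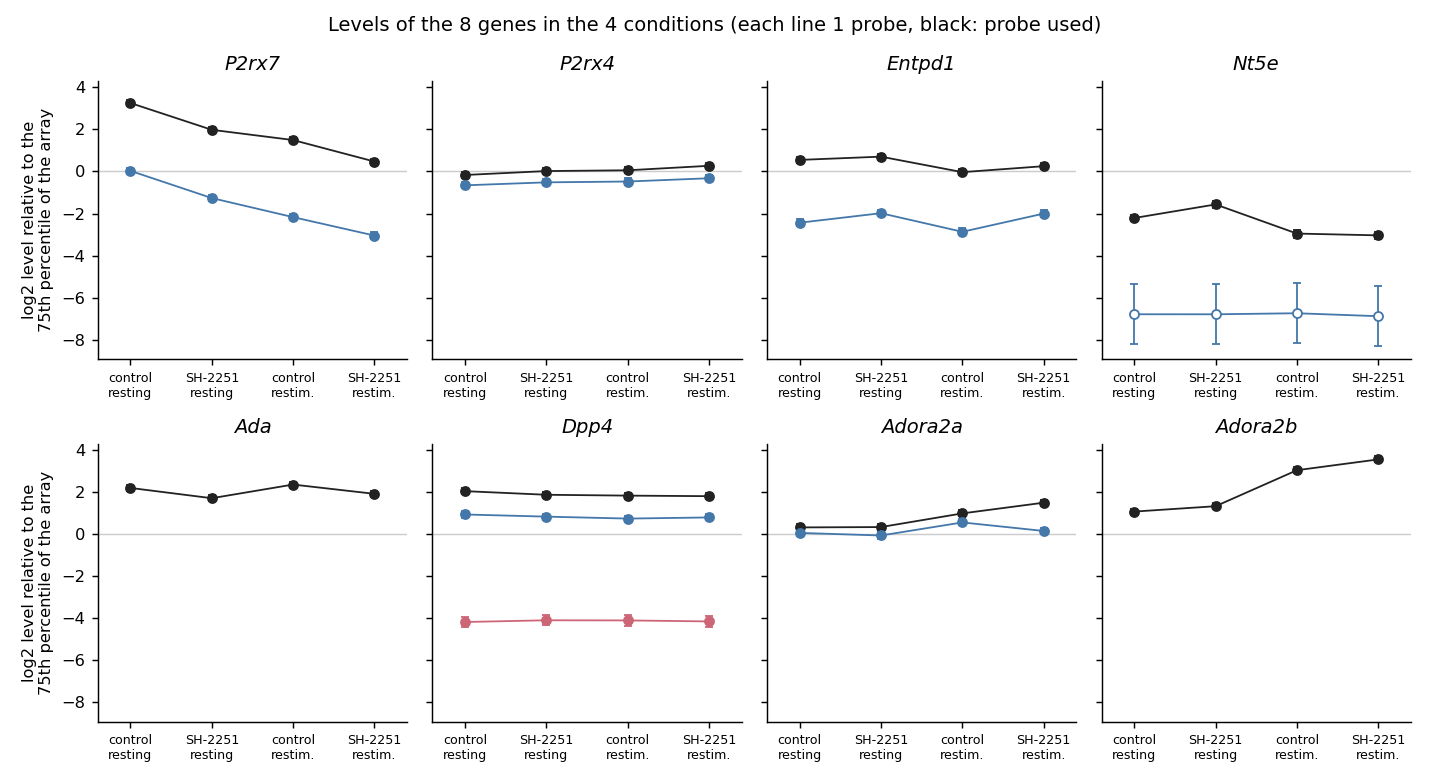
Log2 level minus the array's 75th percentile (vertical axis) of every probe of the 8 genes in the 4 conditions (horizontal axis), with lines joining the values of 1 probe, black for the probe used, and bars for the technical SD. Open circles were not well above background. Both P2rx7 probes step down from the resting control to the restimulated SH-2251 array, and Adora2b is high on both restimulated arrays.

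P2rx7 encodes a channel that opens at high ATP concentrations and on longer exposure lets large molecules through. Its brighter probe (NM_011027) had a log2 level of 3.26 in the resting control cells, 1.98 in the resting SH-2251-treated cells, 1.5 in the restimulated control cells and 0.47 in the restimulated SH-2251-treated cells. The corresponding intensities were 5367, 2430, 1408 and 809. The 4 levels thus stood in 1 descending order, with each step larger than its technical SD.

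With SH-2251 the log2 difference of P2rx7 was -1.28 (technical SD 0.204) in the resting cells, which left 41.3% of the control signal. It was -1.02 (technical SD 0.204) in the restimulated cells, which left 49.2%. The decrease had rank 164 over 11874 genes measured in both resting conditions, and rank 227 over 11812 genes in the restimulated ones. The restimulated value lay at the 2-fold limit and ran from -1.02 to -0.95 over the other ways of processing, and it fell short of 2-fold with the median of each array as the reference, with both normexp corrections and with the mean of both probes. The value in resting cells was between -1.48 and -1.22 and stayed past the limit throughout.

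Restimulation was accompanied by a larger difference in the same direction. The log2 difference of P2rx7 between restimulated and resting cells was -1.76 (technical SD 0.204) in the control and -1.51 (technical SD 0.204) in the SH-2251-treated cells, which left 29.5% and 35.1% of the resting signal. From the resting control to the restimulated SH-2251 array the difference was -2.79 (technical SD 0.204), leaving 14.5%. The SH-2251 differences in the 2 states were 0.25 apart (technical SD 0.289), within the technical error.

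The other P2rx7 probe (NM_001038845) matches a record of a different transcript of the gene. Its log2 levels were 0.03, -1.26, -2.17 and -3.05 in the same order of conditions, the same descending order as for the brighter probe. Its SH-2251 difference was -1.29 (technical SD 0.207) in resting cells and -0.88 (technical SD 0.241) in restimulated cells. On restimulation it was lower by -2.20 in the control and -1.78 in the SH-2251-treated cells on the log2 scale. Both probes therefore gave the same direction in all 4 comparisons, and they differed on which side of 2-fold the restimulated SH-2251 value fell.

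P2rx7 has start sites in 2 places in the RefSeq annotation (mouse GRCm38.p6, chromosome 5, plus strand), and the bases before each are shown because both of its probes were lower in the treated and in the restimulated cells. Each window holds the 250 bases before a start, and capitals mark matches on either strand to 1 of 4 sets of letters that were searched.
P2rx7, chr5:122643677-122643926, plus strand: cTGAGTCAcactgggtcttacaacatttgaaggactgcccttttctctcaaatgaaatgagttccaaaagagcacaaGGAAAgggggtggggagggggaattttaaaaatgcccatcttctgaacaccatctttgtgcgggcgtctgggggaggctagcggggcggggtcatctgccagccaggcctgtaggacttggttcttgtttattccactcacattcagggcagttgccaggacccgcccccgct
P2rx7, chr5:122650133-122650382, plus strand: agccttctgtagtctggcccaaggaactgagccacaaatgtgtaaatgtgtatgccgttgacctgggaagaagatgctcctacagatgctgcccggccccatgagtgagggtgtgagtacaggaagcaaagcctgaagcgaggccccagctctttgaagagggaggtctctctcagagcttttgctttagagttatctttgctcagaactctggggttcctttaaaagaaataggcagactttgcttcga

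The letters searched were TGANTCA (the AP-1 site), TGACGTCA (the cyclic AMP response element), GGAAA (the core bound by NFAT factors) and AAATCA (a core bound by GFI1). The upstream window held 1 AP-1 match, at its 5′ end, and 1 NFAT core match, which did not overlap it. The downstream window held none of the 4. Of the 32851 windows of the same length in the table, 6.75% held an AP-1 match, 55.6% an NFAT core, 12.4% a GFI1 core and 1.55% a cyclic AMP response element. A match is a description of these letters, and binding was not measured here.

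The neighbours of P2rx7 on chromosome 5 were set beside it, chosen by their place in the RefSeq order and not by their values. Atp2a2 and Ift81 lie on one side and P2rx4, Camkk2, Anapc5 and Rnf34 on the other, and all 7 genes were well above background on all 4 arrays. With SH-2251 the log2 differences of the 6 neighbours were between -0.06 for Atp2a2 and 0.21 for Ift81 in the resting cells. In the restimulated cells they were between -0.03 for Anapc5 and 0.31 for Rnf34. P2rx7 was thus the single gene of this stretch that was 2-fold lower with SH-2251 in either state. On restimulation of control cells, Atp2a2, a calcium pump of the endoplasmic reticulum, was higher by 1.12, and Rnf34, a ubiquitin ligase, had a difference of -1.04, both on the log2 scale.

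**Figure D2:**
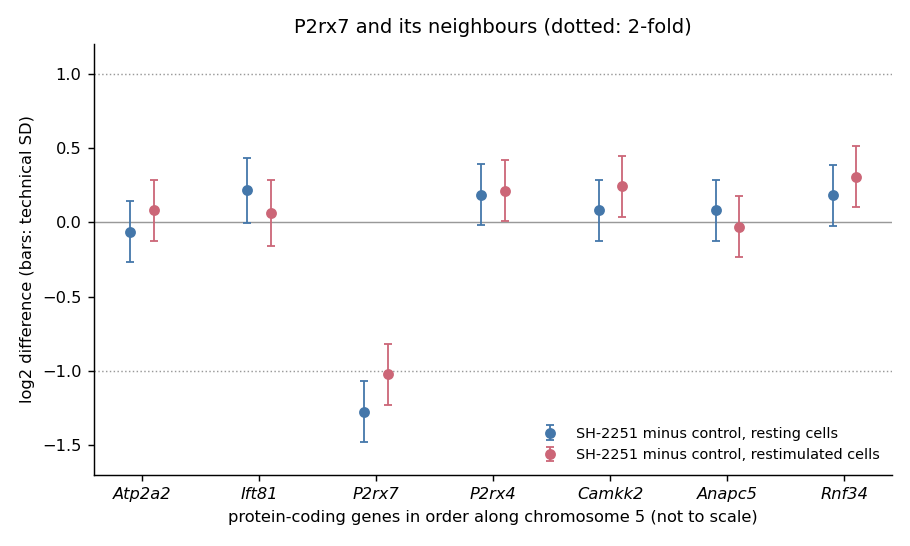
Log2 difference between SH-2251-treated and control cells (vertical axis) of P2rx7 and its protein-coding neighbours in their order on chromosome 5 (horizontal axis, not to scale), in resting (blue) and restimulated (red) cells, with bars for the technical SD and dotted lines at 2-fold. P2rx7 lies at -1.28 and -1.02, and the neighbours between -0.06 and 0.31.

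P2rx4, the gene for P2X4, a channel that opens at lower ATP concentrations than P2X7, had log2 levels of -0.17, 0.02, 0.06 and 0.27 in the resting control, resting SH-2251, restimulated control and restimulated SH-2251 cells. The values ran in the opposite order to those of P2rx7, but over a span of 0.44 only. The SH-2251 difference was 0.19 (technical SD 0.205) in resting cells and 0.21 (technical SD 0.205) in restimulated cells. The other probe read -0.66, -0.52, -0.48 and -0.32, the same order. Neighbouring conditions in this order differed by less than or by about the technical SD, so the order is not resolved.

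Of the other P2X receptor genes, P2rx2 and P2rx3 were well above background on all 4 arrays, P2rx5 on 1, and P2rx1 and P2rx6 on 0. Among those compared, P2rx7 was the 1 that was 2-fold lower with SH-2251. P2rx2 had SH-2251 differences of -0.33 in the resting and -0.30 in the restimulated cells, and P2rx3 had 0.10 and -0.13, all on the log2 scale.

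P2ry1, which encodes an ADP receptor coupled to Gq, went the other way. Its log2 level was -2.65 in the resting control, -0.67 in the resting SH-2251, -1.47 in the restimulated control and 0.50 in the restimulated SH-2251 cells. These values are from the brighter of its 2 probes, and the other is not described here. The level was higher with SH-2251 and higher after restimulation. The SH-2251 difference was 1.98 in both states, and the restimulation difference was 1.17 in both treatments, on the log2 scale. P2ry1 was the only 1 of the 4 P2Y genes measured on all 4 arrays that passed 2-fold with SH-2251. P2ry12 was well above background on the restimulated control array only, where it was at least 1.78-fold higher than with SH-2251, so its side of 2-fold is not known. P2ry2, a receptor for ATP and UTP, was higher on restimulation, by 2.28 in the control and 2.03 in the SH-2251-treated cells, and P2ry4, P2ry6 and P2ry13 were not well above background on any array.

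Entpd1 encodes CD39, the ectoenzyme that removes phosphates from ATP and ADP. Its brighter probe (NM_009848) had log2 levels of 0.55 in the resting control, 0.71 in the resting SH-2251, -0.03 in the restimulated control and 0.25 in the restimulated SH-2251 cells. Both resting arrays were above both restimulated ones. The SH-2251 difference was 0.15 (technical SD 0.204) in resting cells and 0.28 (technical SD 0.205) in restimulated cells, and the restimulation difference was -0.58 in the control and -0.45 in the SH-2251-treated cells. The dimmer Entpd1 probe, at levels of -2.44, -1.98, -2.87 and -2.0, gave higher SH-2251 differences of 0.45 and 0.87 and, in the SH-2251-treated cells, a restimulation difference of -0.02. The probes shared the direction with SH-2251 in both states, and neither passed 2-fold.

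Nt5e encodes CD73, the membrane-anchored enzyme that makes adenosine from AMP. It was measured by 1 usable probe of low signal (NM_011851), with intensities of 121, 207, 64.5 and 70.9 and log2 levels of -2.21, -1.57, -2.95 and -3.04 in the resting control, resting SH-2251, restimulated control and restimulated SH-2251 cells. The level was highest in the resting SH-2251-treated cells and lowest, without a resolved difference between treatments, in both kinds of restimulated cells. The other probe to the same transcript was not well above background on any of the 4 arrays, with intensities between 4.66 and 5.54.

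The SH-2251 difference of Nt5e was 0.65 (technical SD 0.220) in resting cells and -0.09 (technical SD 0.262) in restimulated cells, on the log2 scale. The contrast between these differences was -0.73 (technical SD 0.343), the greatest among the 8 genes, and it was not tested. Restimulation was accompanied by a log2 difference of -0.74 (technical SD 0.247) in the control and -1.47 (technical SD 0.237) in the SH-2251-treated cells, where 36.1% of the resting signal was left. Only the latter passed 2-fold. The control value was -0.24 under both normexp corrections and -0.35 with the mean of the probes, and the SH-2251 difference in resting cells ran from 0.32 to 0.90 over the other ways of processing. The value in treated cells was -0.86 under the normexp correction made without spots of uneven local background, and -0.78 when the probe at background was averaged in.

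The wider list of 9 ectonucleotidase genes had 7 that were well above background on all 4 arrays, and 0 of these were 2-fold lower or higher with SH-2251 in either state. The nearest was Entpd2, which hydrolyses ATP and leaves ADP, with a log2 difference of -0.995 in the resting and -0.61 in the restimulated cells. Entpd3 was 2-fold lower on restimulation, by -1.17 in the control and -1.07 in the SH-2251-treated cells, on the log2 scale. Of the 4 Entpd enzymes of internal membranes, 0 passed 2-fold in any of the 4 comparisons, with SH-2251 differences of 0.57 in resting and 0.88 in restimulated cells for Entpd5 and of -0.60 and -0.20 for Entpd7.

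Ada encodes adenosine deaminase, which turns adenosine into inosine. Its single probe (NM_007398) had log2 levels of 2.20 in the resting control, 1.71 in the resting SH-2251, 2.36 in the restimulated control and 1.92 in the restimulated SH-2251 cells. Both SH-2251 arrays were below both control arrays. The SH-2251 difference was -0.49 (technical SD 0.204) in resting cells and -0.44 (technical SD 0.204) in restimulated cells, leaving 71.3% and 73.6% of the control signal. Both were larger than 2 technical SDs and neither passed 2-fold, and the restimulation differences were 0.16 in the control and 0.21 in the SH-2251-treated cells.

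Dpp4 encodes CD26, a surface peptidase whose human form binds adenosine deaminase. The brightest of its 3 probes (NM_010074) read 2.05, 1.88, 1.84 and 1.81 in the resting control, resting SH-2251, restimulated control and restimulated SH-2251 cells. This was the flattest of the 8 genes, with a span of 0.24 on the log2 scale, and no step between neighbouring conditions exceeded the technical SD. The SH-2251 difference was -0.17 (technical SD 0.204) in resting cells and -0.03 (technical SD 0.204) in restimulated cells. The second probe ran from 0.74 to 0.94 and the third, which was dim, from -4.18 to -4.10.

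Around these, 10 of the 11 listed genes of adenosine removal and transport had a named probe, and 0 of them passed 2-fold with SH-2251. Adk, adenosine kinase, had log2 levels of 4.22, 3.65, 3.80 and 3.21 in the resting control, resting SH-2251, restimulated control and restimulated SH-2251 cells. It was lower with SH-2251 by -0.58 in either state, and Pnp, which splits inosine, had differences of -0.35 and -0.36. The median log2 difference of the list was -0.17 in the resting cells and -0.37 in the restimulated cells, beside -0.06 over all genes in both. The nucleoside transporter gene Slc28a2 had positive SH-2251 differences, 0.45 and 0.56. The equilibrative transporter gene Slc29a2 was higher on restimulation by 1.70 in the control and 1.72 in the SH-2251-treated cells.

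Adora2b encodes the adenosine receptor of low affinity, which raises cyclic AMP. Its single probe (NM_007413) had intensities of 1182, 1546, 4119 and 6864 and log2 levels of 1.08, 1.33, 3.04 and 3.56 in the resting control, resting SH-2251, restimulated control and restimulated SH-2251 cells. The restimulated arrays lay far above the resting arrays, and within each state the SH-2251 array lay above the control. Restimulation was accompanied by a log2 difference of 1.97 (technical SD 0.204) in the control cells, 3.91-fold, and of 2.23 (technical SD 0.204) in the SH-2251-treated cells, 4.68-fold. These ranked 199 among the increases of 11855 genes and 161 among those of 11767 genes.

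With SH-2251 the log2 difference of Adora2b was 0.26 (technical SD 0.204) in resting cells and 0.51 (technical SD 0.204) in restimulated cells. The value in resting cells ran from 0.07 to 0.31 over the other ways of processing, and that in restimulated cells from 0.51 to 0.59. Neither passed 2-fold. From the resting control to the restimulated SH-2251 array the signal was 5.59-fold higher, against 14.5% left for P2rx7 over the same step.

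**Figure D3:**
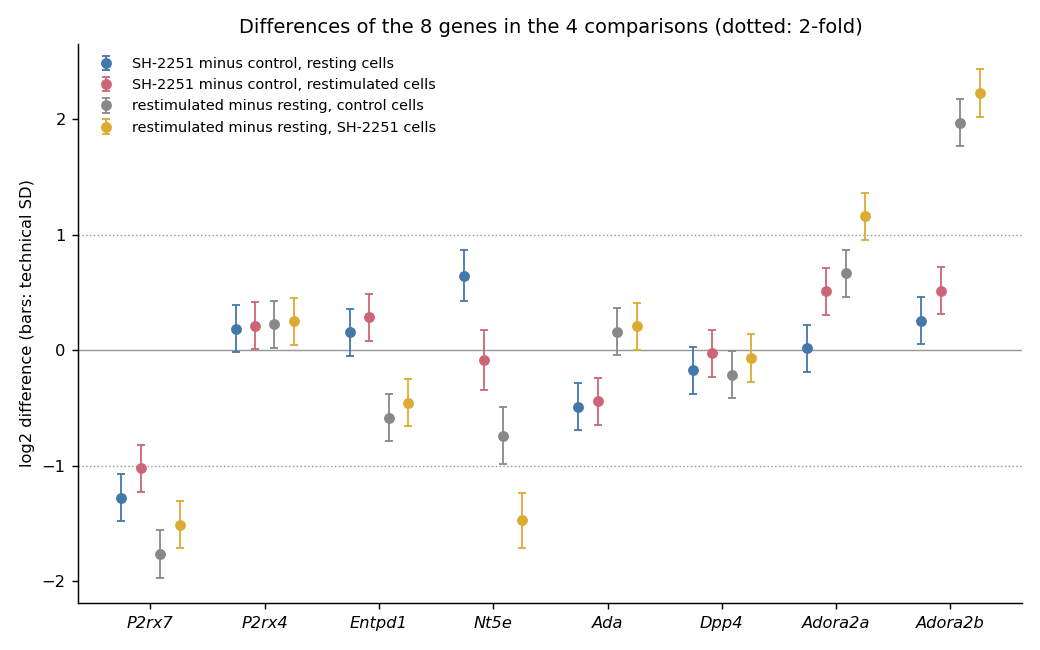
Log2 difference (vertical axis) of each of the 8 genes (horizontal axis, ordered by role) in the 4 comparisons named in the key, with bars for the technical SD and dotted lines at 2-fold. P2rx7 is below 0 in all 4, from -1.76 to -1.02, and Adora2b above 0 in all 4, from 0.26 to 2.23.

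The bases before the Adora2b start are shown because it had the greatest increase on restimulation among the 8 genes. The window is the 250 bases before the start in RefSeq (GRCm38.p6, chromosome 11, plus strand), with matches in capitals as above.
Adora2b, chr11:62248734-62248983, plus strand: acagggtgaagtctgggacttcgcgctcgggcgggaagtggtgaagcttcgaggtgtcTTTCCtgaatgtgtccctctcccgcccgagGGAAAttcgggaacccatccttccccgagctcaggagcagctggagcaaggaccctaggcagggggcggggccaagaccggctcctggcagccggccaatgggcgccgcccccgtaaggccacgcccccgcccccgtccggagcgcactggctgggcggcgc

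It held 2 matches to the NFAT core, 1 on each strand, and 0 to the AP-1 site, the cyclic AMP response element or the GFI1 core. It had 22 CG pairs and a GC content of 69.6%, against 6 CG pairs and 53.6% in the upstream P2rx7 window. Windows were found for 7 of the 8 genes (9 windows in all), with Adora2a left out. The NFAT core was in 4 of the 9, those of Ada, P2rx7 (upstream), Adora2b and 1 of Entpd1, beside the 55.6% of all windows. The AP-1 site was in 1 of the 9, and the other sets of letters in 0.

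Adora2a encodes the high-affinity receptor that raises cyclic AMP, and was measured by 2 probes to the same transcript (NM_009630). The brighter had log2 levels of 0.32, 0.34, 0.99 and 1.5 in the resting control, resting SH-2251, restimulated control and restimulated SH-2251 cells. The resting arrays were level and the restimulated arrays were higher, the SH-2251 array most. The dimmer read 0.06, -0.06, 0.56 and 0.15. In the resting cells the probes gave SH-2251 differences of 0.02 and -0.12, within the technical SDs of 0.204 and 0.205. In the restimulated cells they gave 0.51 and -0.41, opposite in sign and each beyond its technical SD of 0.204 and 0.205. No direction with SH-2251 can therefore be given for Adora2a in restimulated cells. On restimulation both probes were higher in the control cells, by 0.67 and 0.50, and in the SH-2251-treated cells by 1.16 and 0.22, and only the brighter probe passed 2-fold there.

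The remaining adenosine receptor genes Adora1 and Adora3 were well above background on all 4 arrays, at low signal. Adora1 had log2 levels of -3.21, -3.37, -3.01 and -3.27 in the resting control, resting SH-2251, restimulated control and restimulated SH-2251 cells, and stayed within 0.26 in every comparison. Adora3 had -1.31, -1.99, -3.19 and -4.0. It was lower on restimulation by -1.89 in the control and -2.01 in the SH-2251-treated cells, and its SH-2251 differences of -0.68 and -0.81 did not reach 2-fold. On restimulation Adora2a and Adora2b thus had differences above 0, and Adora3 below 0, in the control cells and in the treated cells. Adora1 also lay above 0, by 0.20 in the control and 0.10 in the SH-2251-treated cells. Both values were within its technical SDs of 0.246 and 0.259.

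Of the 16 listed genes of cyclic AMP signalling, 15 had a named probe and were well above background on all 4 arrays, and 0 passed 2-fold with SH-2251 in either state. Their median log2 SH-2251 difference was 0.08 in the resting and 0.07 in the restimulated cells. On restimulation Adcy9, an adenylyl cyclase, was 2-fold lower in both treatments, by -1.13 and -1.30. The phosphodiesterase genes Pde4a and Pde4d were 2-fold lower (-1.04 and -1.05) and Pde4b 2-fold higher (1.00) in the SH-2251-treated cells, beside differences of -0.997 for Pde4a, -0.77 for Pde4d and 0.65 for Pde4b in the control cells. The difference between treatments was not tested.

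Of 5 measured genes linked to P2X7 by shedding or the inflammasome, Nlrp3, an inflammasome sensor, was 2-fold lower with SH-2251 in the resting cells (-1.06, technical SD 0.359) and had -0.40 in the restimulated cells. It was a dim probe, at log2 levels of -3.42 and -4.48 on the resting arrays. Casp1, the protease of the inflammasome, had 0.80 and 0.57, and its adaptor Pycard had -0.53 and -0.43. Nlrp3 was the only gene of the list past 2-fold with SH-2251. In each state 4 of the 5 differences were below 0, where the median over all genes was also below 0, at -0.06. Adam17 was among the 4, at -0.008 in resting and -0.021 in restimulated cells, within its technical SD of 0.204. Among the genes of ATP release, Panx1 was at log2 levels of 5.27, 4.89, 5.90 and 5.35, with SH-2251 differences of -0.38 and -0.55, and Gja1, a connexin, was higher on restimulation by 3.22 in the control and 3.00 in the SH-2251-treated cells. Art2b and Cd38, whose products use NAD outside the cell, were not well above background on any array.

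Over the 10 lists, 71 of 76 genes had a named probe. Without the 8 genes described above, 48 genes were compared in resting cells and 53 in restimulated cells. With SH-2251, 1 of the 48 was 2-fold lower (Nlrp3) and 1 higher (P2ry1) in the resting cells, against 2.90% and 2.26% of all genes. In the restimulated cells 0 of the 53 were lower and 1 higher (P2ry1), against 2.78% and 2.65%. On restimulation 3 of 50 were lower and 4 higher in the control cells, against 7.34% and 7.24% of all genes. In the SH-2251-treated cells 5 of 52 were lower and 6 higher, against 6.98% and 7.09%. Of the 56 pathway genes compared in both states, P2rx7 and P2ry1 were therefore the only ones past 2-fold with SH-2251 in both, in opposite directions. The P2rx7 call in restimulated cells lay at the limit and was lost under some of the other ways of processing.

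**Figure D4:**
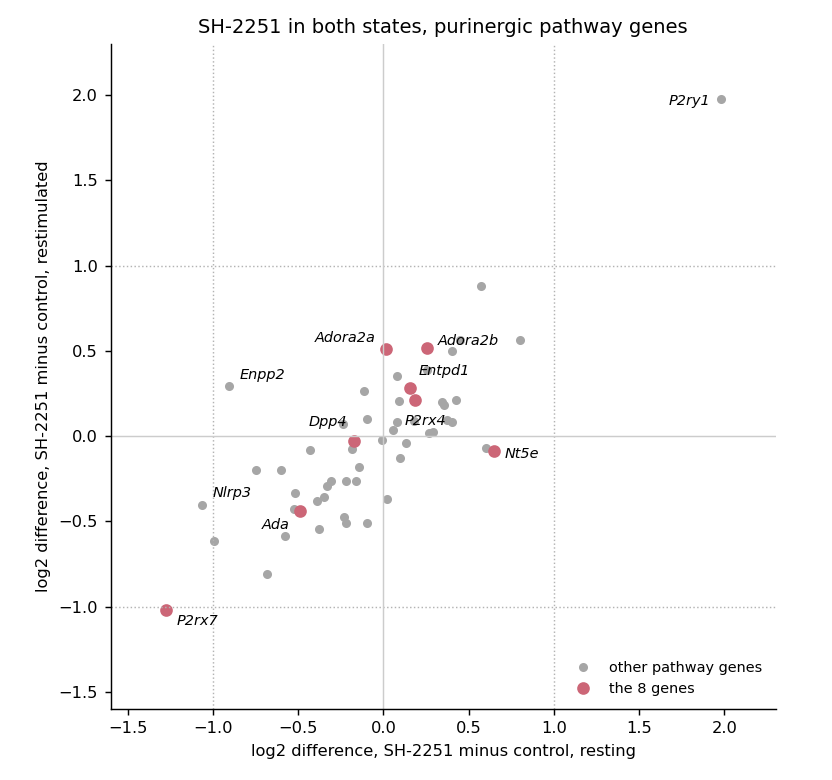
Log2 difference between SH-2251-treated and control cells in resting (horizontal axis) and restimulated (vertical axis) cells, for the 56 pathway genes measured in both, with the 8 genes in red and dotted lines at 2-fold. P2rx7 lies at -1.28 and -1.02, P2ry1 at 1.98 and 1.98, and Nt5e at 0.65 and -0.09.

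The genes with the patterns most like those of P2rx7, Nt5e, Adora2a and Adora2b, whose 4 levels spanned at least 1 on the log2 scale, were found by the root mean square distance between the 4 log2 levels after each gene was centred on its mean, among 11517 genes well above background on all 4 arrays. For P2rx7 these were Tmem45a (distance 0.08), Dhx58, a regulator of RNA sensing (0.10), and Lair1, an inhibitory collagen receptor (0.11). For Adora2b they were Jak2, a cytokine receptor kinase (0.02), Bcl2l1, a survival factor (0.07), and Cd40lg, the ligand of CD40 (0.08). Jak2 had log2 levels of 3.16, 3.41, 5.13 and 5.58 beside the 1.08, 1.33, 3.04 and 3.56 of Adora2b. For Nt5e they were Hmmr (0.08), 1110051M20Rik (0.09) and Mastl, a mitotic kinase (0.09), and for Adora2a they were Timd2 (0.04), Itpkc, a kinase of inositol phosphates (0.05), and Lonrf1 (0.06). A likeness over 4 arrays describes these arrays and nothing of shared control.

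**Figure D5:**
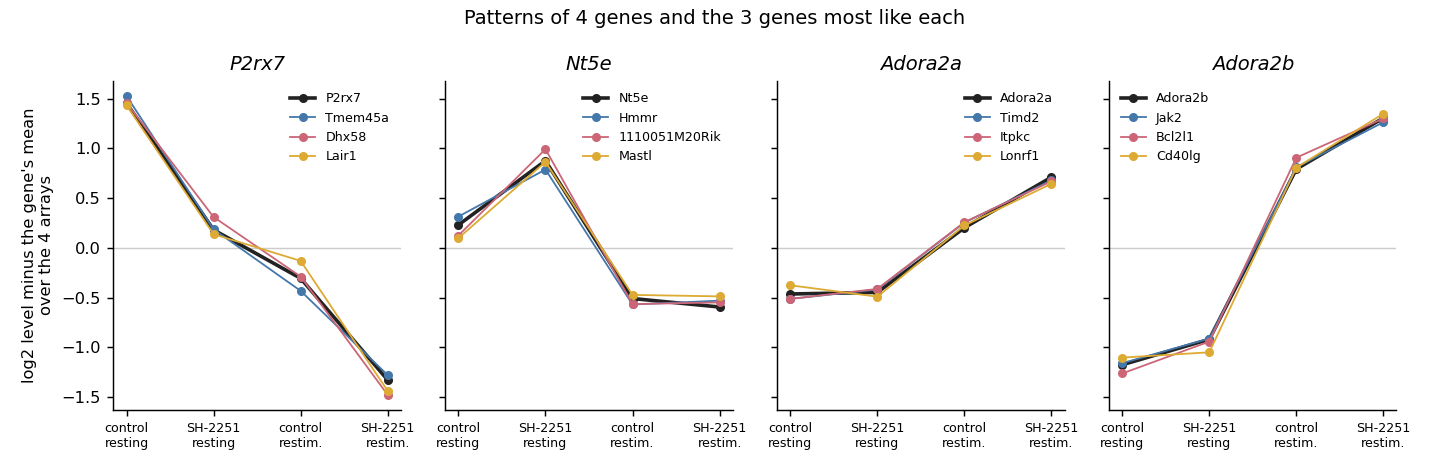
Log2 level minus the mean of the gene over the 4 arrays (vertical axis) in the 4 conditions (horizontal axis), for P2rx7, Nt5e, Adora2a and Adora2b (black, thick) and the 3 genes most like each. P2rx7 and its 3 genes descend over the conditions as ordered, and Adora2b and Jak2 nearly coincide, 0.02 apart.

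The identity of the cells was checked by marker genes. The 5 T cell markers and the 5 Th2 markers were well above background on all 4 arrays, with log2 levels of Gata3, the Th2 master factor, between 5.22 and 5.87. With SH-2251, Il5 (-3.86) and Il13 (-1.32) were at least 2-fold lower in resting cells. In restimulated cells Il5 was as well (-3.01), and Il13 was at -0.57. All 5 Th2 markers were below 0 in resting cells, beside a median of -0.06 over all genes. Gata3 was at -0.17 there, within its technical SD of 0.204, Il4 at -0.10 and Ptgdr2 at -0.55. Il4 was higher on restimulation, by 3.56 in the control cells. Markers of other cells moved as well: Cd8a, at -3.53 to -1.85, was higher with SH-2251 by 1.45 and 0.97, and all 7 B cell markers were above background, of which Ms4a1 (1.21) and Cd74 (1.19) were 2-fold higher in restimulated cells that had SH-2251. The summed linear level of the B cell list was 40.9, 35.6, 33.0 and 45.8 times that of the 75th percentile in the resting control, resting SH-2251, restimulated control and restimulated SH-2251 cells. Such sums are led by the brightest probes, here H2-Ab1 and Cd74. Of the regulatory T cell list, Foxp3 was near background (-4.54 to -3.74), with SH-2251 differences of 0.10 in resting cells and a bound of 0.71 in restimulated cells. Ikzf2 was higher with SH-2251 by 1.26 in the resting cells and by a bound of 1.40 in the restimulated cells. Gpr83 was lower by -1.44 and -1.66. The summed level of the list was 2.93, 1.26, 12.3 and 4.07, most of it from Gpr83 (log2 levels 1.48, 0.04, 3.61 and 1.96). The sum of the CD8 T and NK list was 0.09 to 0.28, of the myeloid list 2.42 to 2.97 (led by Adgre1) and of the mast cell and basophil list 0.20 to 0.22. Of red cell genes, Hba-a1, a haemoglobin gene, had log2 levels of -1.7, -0.55, -2.26 and -0.98 and was 2-fold higher with SH-2251 in both states (1.15 and 1.28). Alas2, an enzyme gene of haem synthesis, was well above background on the restimulated SH-2251 array only, with a bound of 1.57 on the log2 scale. Lyz2, Itgam, Klrb1c, Ncr1, Klrk1, Mcpt8 and Ms4a2 were not well above background on any array. The part of other cells in the values of the 8 genes was not tested, and in bulk RNA fewer cells of a type cannot be told apart from less RNA per cell.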

How the data were processed

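RNA (500 ng per sample) from Th2 cells in 4 conditions was labelled with Cy3 and hybridised to 4 single-dye Agilent arrays, 1 per condition, on 1 slide. Samples were assigned to conditions by the treatment and title in the labels. The authors deposited scanner files written by Feature Extraction 10.7.3.1, whose processed intensity had already been corrected for background, with flags for background and outliers as other columns. The authors also deposited log2 values that the methods say were normalized on the Subio Platform, and these came within 0.01 of the log2 intensity minus a constant for 99.6% or more of probes on each array.

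Here each array's 75th percentile was subtracted from the log2 intensities. Control spots were dropped, as were 77 to 106 outlier spots an array, and repeated spots of a probe were averaged. The files carry no gene names, so 27198 of 41174 probes (66.1%) were named through RefSeq accessions (GRCm38.p6), and the probe with the highest mean signal stood for a gene. The arrays were designed on another assembly, so no probe coordinates are given. A gene was compared where either array of the pair had its probe well above background. Where just 1 had, the dimmer value was raised to that array's lowest well-measured signal if it was below it, so that the difference is a bound. Differences of at least 2-fold were counted. Other choices (11) were the reference of the scaling, quantile normalization, 2 normexp corrections with an offset of 50, made on median spot signals, the authors' values, the filter, outlier spots, the mean of all probes and thresholds of 1.5-fold and 3-fold. The code was run on simulated pairs of arrays with planted changes larger than 2-fold and noise from the scanner error alone. Dim genes and the spread between cultures or animals were not part of that run, so it cannot show how reliable the differences are. The number of arrays limits the precision.

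All 8 genes were described. From 10 lists of pathway genes, those at least 2-fold different with SH-2251, up to 4 per list, and Adora1 and Adora3 were to be named, and for genes spanning at least 1 on the log2 scale the 3 most similar patterns. Other genes were named after their values were seen. The genes and lists were chosen with earlier results of these data known. Sequences came from a RefSeq table. Software was limma 3.58.1 in R 4.3.3, and Python 3.11.15 with pandas 2.3.3, numpy 2.4.6 and, for plots, matplotlib 3.10.9.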

Additional observations from a re-analysis of the deposited data

Results flagged for a closer look

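Enpp2, which encodes autotaxin and stood in the list of ectonucleotidases, was 1 of the 56 pathway genes measured in both states. It was the only 1 whose SH-2251 differences had opposite signs with each larger than its technical SD. The log2 difference between SH-2251-treated and control cells was -0.907 (technical SD 0.316) in the resting cells and 0.293 (technical SD 0.255) in the restimulated cells. Its log2 levels were -3.23 in the resting control, -4.14 in the resting SH-2251, -3.31 in the restimulated control and -3.02 in the restimulated SH-2251 cells, so the resting SH-2251 array was the low one. The signal was dim, each condition had 1 array, and the difference between the states was not tested. None of the 8 genes had such a pair of opposite differences.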

How the results depend on the processing

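Each of the 32 differences of the 8 genes was recomputed in 9 other ways, and moved by more than the technical SD in 8 cases with the mean of all probes, 6 with normexp and 2 with normexp after spots of uneven background were left out. No called difference changed sign. The 2-fold decrease of P2rx7 with SH-2251 in restimulated cells was lost (0 genes lower) with the median of each array, both normexp corrections and the mean of all probes. The 2 genes lower on restimulation of SH-2251-treated cells became 1 (P2rx7) under normexp without spots of uneven background and with the mean of all probes, where 1 (Adora2b) in place of 2 was higher. At 1.5-fold, the count of genes higher with SH-2251 in resting cells was 1 (Nt5e), while 2 genes were lower and 2 higher on restimulation of control cells. At 3-fold, 0 genes were lower with SH-2251 in either state, and 0 lower and 1 higher on restimulation of SH-2251-treated cells.

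Counts over all genes (lower, higher) moved by over 1.5 times with the fold threshold, the filter and the background correction. In the order SH-2251 in resting cells, SH-2251 in restimulated cells, restimulation in control cells and restimulation in treated cells, they were 368 and 287, 351 and 334, 937 and 924, and 881 and 894. Normexp gave 162 and 694 (81.1% higher in place of 43.8%), 161 and 149, 443 lower, and 1512 lower (32.6% higher in place of 50.4%). Without spots of uneven background it gave 189 and 122, 159 and 149, 443 lower and 443 lower. With neither filter nor bound there were 798 and 623, 950 and 678, and 1421 lower in treated cells. At 1.5-fold there were 945 and 776, 902 and 871, 2366 and 1924, and 2385 and 1871, and at 3-fold 142 and 103, 144 and 102, 194 and 383, and 145 and 396. In the normexp fit, the resting SH-2251 array had 4 spots below their local background, the lowest at a net signal of -4526.5. Its fitted mean background was -151.7, beside 7.36 to 8.23 on the other arrays. It was 7.42 once 12 spots of uneven background were left out. The part of these spots in the normexp counts and ranges, and the cause of the other shifts, was not tested.

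No paired analysis was possible because each condition has 1 array, so there is also no replicate to leave out. Dim probes carry more error, with technical SDs of 0.220 to 0.262 for Nt5e, 0.359 for Nlrp3 and 0.316 for Enpp2 beside 0.204 for bright probes.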
